A study of Homo sapiens with 28 samples.

Results

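Alternative C-terminal exon events, labelled alt-C-term by the splicing software, are pairs of splice junctions of 1 gene in which the 2 junctions are annotated to lead to different 3′ ends of the transcript. They were taken as the rows of the deposited splicing table whose event annotation is exactly alt-C-term, which gave 2303 of the 100814 events in the table (2.28%), in 1433 junction clusters and under 1340 gene symbols. Each event compares an examined junction with a background junction, and its value is the percent spliced in (PSI), here in percent, the share of the local junction reads that the examined junction takes. The table gives no read counts, so the depth behind a single PSI value is unknown and no counting interval can be set on it.

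The study knocked down MBNL1 in 2 human acute myeloid leukaemia cell lines with a rearranged MLL gene, MOLM13 (MLL-AF9) and MV4;11 (MLL-AF4), and sequenced the RNA of 28 libraries. MOLM13 cells carried the MBNL1 hairpin shMBNL1-64 (h64, 3 libraries) against a non-targeting hairpin (shNT, 3 libraries) after 72 h of puromycin selection, which is called early here. They also carried the second hairpin shMBNL1-65 (h65, 4 libraries) against a further set of 3 shNT libraries, and h64 against shNT at day 12 (3 libraries each). MV4;11 cells carried h64 or h65 (3 libraries each), and both were set against the same 3 shNT libraries, so these 2 comparisons share their controls. In every group the hairpin came by lentivirus into the whole culture, so each group is a population of transduced cells of 1 line. Only the day 12 libraries were described as biological triplicates. For the other groups the spread between libraries may be technical, and p-values measure that spread only.

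Most genes can end at more than one place. An alternative last exon is spliced in place of the downstream exons and brings its own polyadenylation site, so its choice changes the C-terminus of the protein or, when the early last exon lies near the start of the gene, leaves a short transcript. MBNL1 (muscleblind like splicing regulator 1) is an RNA-binding protein that recognises short UGC-containing motifs with pyrimidines on each side, and muscleblind proteins are known to affect the choice of exons and of 3′ ends. Here "proximal" names the acceptor (the first base of the exon spliced to) nearer to the shared donor (the last base of the exon spliced from), and "distal" the one farther downstream.

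The label was checked against the junction positions and the GENCODE annotation on GRCh37, the build of the files. Of the 2303 events, 1767 (76.7%) compared 2 acceptors of 1 shared donor. The other 536 (23.3%) shared the acceptor and differed in the donor, so they do not compare 2 last exons, and they are kept apart below. Among the 1767 shared-donor events the proximal acceptor began an annotated last exon in 1464 (82.9%), the distal acceptor in 775 (43.9%), both in 653 (37%) and neither in 181 (10.2%). The proximal and distal exons were separate in 1455 events. In 145 events the distal acceptor lay inside the proximal exon, and in 167 the proximal acceptor was not annotated. The distance between the acceptors had a median of 6718 bases, was under 10 bases in 41 events and over 10000 bases in 704. The shared-donor events used 931 distinct annotated proximal last exons with a median length of 420 bases. Of these, 458 (49.2%) held coding bases, and 430 (46.2%) had the polyadenylation hexamer AATAAA within their last 50 bases. The plot of 4 junction pairs shows the layouts met most often below.

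**Figure D1:**
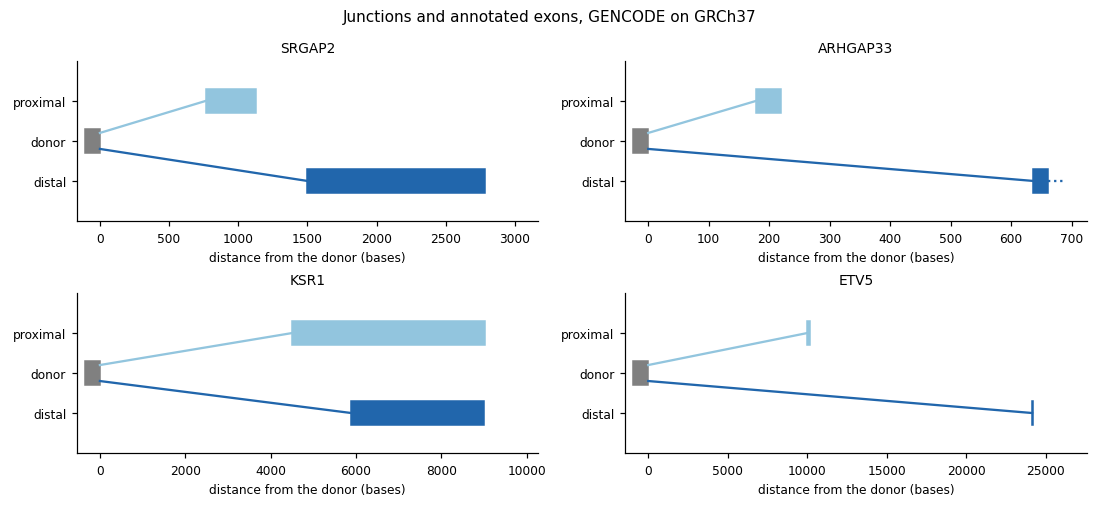
Junctions and annotated exons of SRGAP2, ARHGAP33, KSR1 and ETV5, drawn to scale by distance in bases from the last base of the shared donor exon (grey, length not to scale). The proximal exon (light blue) and the distal exon (dark blue) are drawn from the annotation on 2 levels, and a dotted end marks a distal exon that is not a last exon and whose length is not drawn. In SRGAP2 the distal acceptor lies 734 bases beyond the proximal one, in ARHGAP33 458 bases, in KSR1 1385 bases, inside the proximal exon, and in ETV5 14138 bases.

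The sequences at the acceptors of SRGAP2, MBNL1, ARHGAP33 and ETV5 are shown, which are 4 of the 8 genes called in 3 or more comparisons. ARHGAP33 and ETV5 were taken as genes that moved in opposite directions. The intron bases before an acceptor are among the places where muscleblind proteins and general splicing factors can bind, and they are not the only ones. Each run is 110 bases of GRCh37 in the sense of the transcript, 5′ to 3′, with 100 bases of intron followed by the first 10 bases of the exon. Capitals mark matches to the letters TGCT or to TGCC, and also matches to CGCT or to CGCC, searched on the transcribed strand with overlapping matches counted. A match is a description of the letters and not a binding site. Over all 1126 junction clusters with a shared donor, of any layout, 1 event was counted per cluster. Of these, 86.4% held at least 1 match in the 200 intron bases before the proximal acceptor and 86.6% before the distal one. The windows are chr1:206627390-206627499 and chr1:206628124-206628233 (plus strand) for SRGAP2, chr19:36275297-36275406 and chr19:36275755-36275864 (plus strand) for ARHGAP33, chr3:152019608-152019717 and chr3:152132630-152132739 (plus strand) for MBNL1, and chr3:185813093-185813202 (minus strand) for the proximal acceptor of ETV5.
SRGAP2 proximal acceptor: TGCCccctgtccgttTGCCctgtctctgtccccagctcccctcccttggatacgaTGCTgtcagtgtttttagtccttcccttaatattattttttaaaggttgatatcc
SRGAP2 distal acceptor: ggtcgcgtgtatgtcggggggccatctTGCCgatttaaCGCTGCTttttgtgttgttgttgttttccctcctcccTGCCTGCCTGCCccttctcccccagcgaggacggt
ARHGAP33 proximal acceptor: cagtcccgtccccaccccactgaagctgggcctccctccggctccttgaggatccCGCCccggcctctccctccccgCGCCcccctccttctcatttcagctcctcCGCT
ARHGAP33 distal acceptor: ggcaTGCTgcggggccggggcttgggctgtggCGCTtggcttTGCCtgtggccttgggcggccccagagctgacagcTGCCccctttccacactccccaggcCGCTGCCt
MBNL1 proximal acceptor: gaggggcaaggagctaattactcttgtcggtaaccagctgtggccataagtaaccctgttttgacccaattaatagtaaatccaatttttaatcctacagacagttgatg
MBNL1 distal acceptor: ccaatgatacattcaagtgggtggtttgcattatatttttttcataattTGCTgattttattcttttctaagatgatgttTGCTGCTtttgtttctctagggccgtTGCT
ETV5 proximal acceptor: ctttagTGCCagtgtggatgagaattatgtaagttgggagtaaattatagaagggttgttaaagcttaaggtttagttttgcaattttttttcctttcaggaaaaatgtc
In the printed windows SRGAP2 had 3 matches at the proximal acceptor and 6 at the distal one, ARHGAP33 had 3 and 6, and MBNL1 had 0 and 4. ETV5 had 1 match in its proximal window and 2 in its distal one, which is not printed. Over 200 intron bases before the proximal and the distal acceptor, the genes that moved toward the distal one had 3 and 11 matches (SRGAP2), 5 and 15 (ARHGAP33), 1 and 3 (MBNL1), 4 and 7 (ZDHHC3), 1 and 1 (AUH) and 4 and 1 (ENPP2). Those that moved toward the proximal one had 2 and 2 (ETV5) and 5 and 2 (KSR1). More matches before the distal acceptor were thus not shared by all genes that moved there. MBNL1 is placed there for the rise of its distal junction alone, since its proximal junction did not fall with h64.

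MBNL1 RNA was lower in each knockdown than in its own controls, and more so with h64. On the RPKM scale (reads scaled to transcript length and library size) it was 2.94, 2.96 and 3.8 in early MOLM13 h64 libraries against 18.8, 20 and 28.6 in shNT. It was 8.26, 13, 14.3 and 15.4 in MOLM13 h65 against 20.2, 19.0 and 17.5 in shNT. The h64 libraries were thus further below their controls than the h65 ones. In MV4;11 it was 3.62, 3.54 and 3.98 with h64 and 10.7, 12.8 and 12.4 with h65, against 23.3, 25.4 and 18.5 with shNT. At day 12 it was 4.13, 4.65 and 4.42 with h64 against 26.5, 26.9 and 25.6 with shNT. No knockdown library overlapped its controls. The log2(RPKM + 1) change by limma was -2.45 (SE 0.196, adjusted p = 0.0674) in early MOLM13 h64, -0.57 (SE 0.197, adjusted p = 0.209) in MOLM13 h65, -2.30 (SE 0.134, adjusted p = 0.00046) in MV4;11 h64, -0.85 (SE 0.141, adjusted p = 0.0367) in MV4;11 h65 and -2.34 (SE 0.0485, adjusted p = 1.96e-07) at day 12. The MOLM13 h65 fall did not reach the 1.5-fold and p thresholds used below.

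Across the members, a library gave a PSI for 1482 to 1848 of the 2303 events. There were 1472 events tested in all 5 comparisons and 470 in none. The lines carried myeloid markers (CD33 14.2 to 22.8 RPKM, SPI1 95.9 to 237 RPKM), and CD14 was at most 0.108 RPKM. Of the T cell markers, CD3D reached 12.2 RPKM in its highest library while CD3E and CD2 were at most 0.0723 and 0.122 RPKM, and their part in the splicing values was not tested. In the early MOLM13 h64 comparison, replicate 3 of both groups deviated together from the other replicates (correlation of their deviations 0.3 across 62095 events of all types).

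An event was called when the 2-group limma test over all events of the table gave p of 0.01 or less and the mean PSI differed by more than 10 percentage points. By that rule 27 of 1558 tested members were called in early MOLM13 h64 (1.73%), against 1.73% of events of all types. In MOLM13 h65 it was 22 of 1591 (1.38%), against 1.28%. In MV4;11 h64 it was 33 of 1694 (1.95%), against 1.64%, and in MV4;11 h65 18 of 1699 (1.06%), against 0.866%. At day 12 it was 44 of 1742 (2.53%), against 2.34%. The share of last-exon events that differed was thus near that of all events in each comparison. With a Benjamini-Hochberg adjusted p under 0.05 in addition, 1, 0, 3, 0 and 10 members remained in the same order of comparisons, where 0.269%, 0.0265%, 0.278%, 0.0188% and 0.782% of all events did. The 0 of MOLM13 h65 and of MV4;11 h65 stand beside 37 of 1591 and 39 of 1699 tested members at p of 0.01 or less. These 2 counts set no limit on the difference, and their share over all events was not counted.

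Counted once per junction cluster by the event of lowest p, the calls, whose groups did not overlap in any of these clusters, were 20 of 981 clusters in early MOLM13 h64, 19 of 1004 in MOLM13 h65, 26 of 1065 in MV4;11 h64, 15 of 1067 in MV4;11 h65 and 36 of 1095 at day 12. Over all event types, 3.49%, 2.81%, 3.5%, 2.14% and 4.4% of clusters were called, but those clusters hold more events each, so the shares are not like for like. How often groups did not overlap was not counted over all event types. Of the called clusters, 16, 18, 22, 13 and 29 had a shared donor and the others a shared acceptor. The typical member moved little: the median absolute difference was 3.31, 3.28, 3.16, 3.00 and 2.61 percentage points over the tested members, beside 2.14, 2.01, 1.88, 1.76 and 1.84 points over all tested events. The mean use of the proximal acceptor was taken over the 359 clusters with separate exons and an annotated proximal last exon that every library measured. It was 30.85% ± 0.742 in early MOLM13 h64 against 32.01% ± 0.42 in shNT (SD, n = 3 each). At day 12 it was 30.57% ± 0.452 with h64 against 31.25% ± 0.17 with shNT. In MOLM13 h65 it was 30.13% ± 0.437 (SD, n = 4) against 31.55% ± 1.03 in shNT. In MV4;11 it was 29.81% ± 0.146 with h64 and 29.2% ± 0.283 with h65, against 29.79% ± 0.664 with shNT. The MV4;11 h64 mean was thus not below that of its controls.

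Called shared-donor clusters were counted by direction. The direction is that of the called event alone, so MBNL1 counts as distal although its proximal junction did not fall with h64. In early MOLM13 h64, 11 of 721 tested clusters went toward the distal and 5 toward the proximal acceptor, where 1.57% and 1.59% of shared-donor clusters of all types did. In MOLM13 h65 these were 15 and 3 of 743, with 1.2% and 1.46% over all types. In MV4;11 h64 they were 12 and 10 of 791, with 1.67% and 1.51%. In MV4;11 h65 they were 10 and 3 of 786, with 0.995% and 1.04%. At day 12 they were 17 and 12 of 806, with 2.09% and 2.02%. As a share of the tested clusters the distal calls were near or above the level of all types, and the proximal calls were below it in each comparison. Clusters of all types hold more events each, so these shares are not like for like either. Among called clusters with separate exons, 9 and 3 went toward the distal and the proximal acceptor in early MOLM13 h64, 10 and 2 in MOLM13 h65, 9 and 9 in MV4;11 h64, 8 and 3 in MV4;11 h65 and 11 and 9 at day 12, so the counts were equal or nearly so in the MV4;11 h64 and day 12 comparisons. Over all tested shared-donor clusters, called or not, 43%, 43.2%, 46.9%, 43.8% and 41.9% had their event of lowest p on the side of the proximal acceptor, beside 44.2%, 49.1%, 45.2%, 45.5% and 45.3% over all event types.

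**Figure D2:**
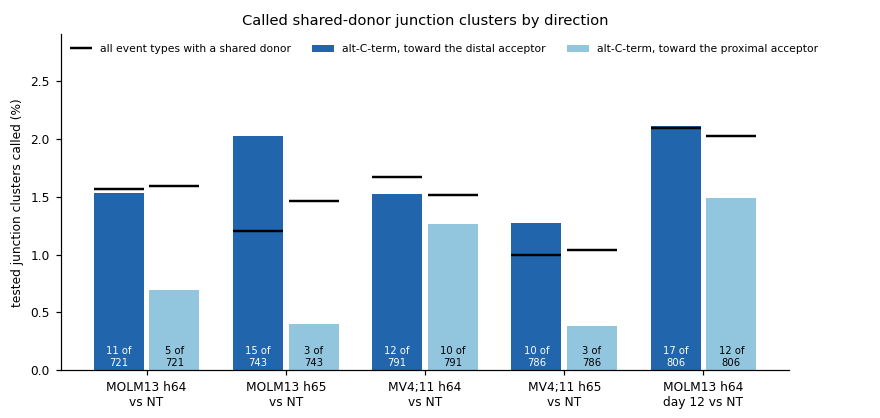
Percent of tested shared-donor junction clusters called in each of the 5 comparisons, toward the distal acceptor (dark bars) and toward the proximal acceptor (light bars), with the number called and tested in each bar. Black lines give the same percent over all event types with a shared donor, whose clusters hold more events each, so bars and lines are not like for like. Calls toward the proximal acceptor lie below the black line in each comparison, at 5 of 721, 3 of 743, 10 of 791, 3 of 786 and 12 of 806 clusters.

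A loss of one junction should appear as a gain of its partner when only those 2 junctions compete, so the reciprocal event was read where the table held it. In early MOLM13 h64 13 of the 16 called shared-donor clusters had a tested reciprocal event, which moved the opposite way in 12 and by at least 50% of the size in 8. The same counts were 15, 15 and 9 of 18 in MOLM13 h65, 15, 14 and 10 of 22 in MV4;11 h64, 8, 8 and 7 of 13 in MV4;11 h65, and 23, 20 and 17 of 29 at day 12. Clusters in which the partner junction did not move by that much included MBNL1 in 4 comparisons. Among the others were PI4K2B, KSR1 and VTI1A in early MOLM13 h64, and AP000525.9 and AL589743.1 in MOLM13 h65. ETV5 and PPIE were among them in MV4;11 h64. For those genes other local junctions take part in the PSI.

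Of the members, 109 events in 84 clusters were called in at least 1 comparison. Of these events, 86 were called in 1 comparison, 15 in 2, 5 in 3, 2 in 4 and 1 in all 5, and 0 were called in opposite directions. Repeated calls were not counted over all event types, so these counts cannot be set against a background. The events called in 3 or more lay in SRGAP2, MBNL1, ENPP2, AUH, ARHGAP33, ZDHHC3 and ETV5, and KSR1 was called in 3 comparisons through its 2 reciprocal events.

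SRGAP2, which encodes a GTPase-activating protein of the Slit-Robo pathway, was called in all 5 comparisons. The event is the junction from chr1:206626726 to a proximal exon at chr1:206627490-206627855, annotated as the 366-base last exon of a non-coding transcript, against the junction to 206628224. PSI of the proximal junction was 6.71%, 6.75% and 8.02% in early MOLM13 h64 libraries against 55.7%, 51.7% and 62.4% in shNT. In MOLM13 h65 it was 24.6%, 43.1%, 35.7% and 34.7% against 56.2%, 56.9% and 52.0%. These groups lay far apart with h64, and less far with h65. In MV4;11 it was 8.75%, 9.34% and 15.7% with h64 and 28.8%, 24.4% and 28.1% with h65, against 59.0%, 56.9% and 63.0% with shNT. At day 12 it was 6.24%, 7.83% and 5.37% with h64 against 57.1%, 52.7% and 54.7% with shNT. Every h65 library lay between the h64 and the shNT libraries of its line. The differences were -49.45 (SE 2.98, adjusted p = 0.0223), -20.52 (SE 4.48, adjusted p = 0.352), -48.37 (SE 2.71, adjusted p = 0.0168), -32.52 (SE 2.14, adjusted p = 0.0823) and -48.36 percentage points (SE 1.40, adjusted p = 0.00136) by limma, in the order of comparisons used above. The MOLM13 h65 call was lost without h65 replicate 3 or 4 or without any 1 of its shNT libraries, with differences of -22.03 to -19.58 points, and the other 4 calls held without any 1 library.

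The neighbouring events of SRGAP2 held reads that ran past the annotated end of the proximal exon. Reads crossing the annotated end of that exon into the next intron bases (an event annotated as intron retention) had a mean PSI of 20.4% in early MOLM13 h64 against 72.3% in shNT, and 12.2% at day 12 with h64 against 69.7% with shNT. Reads crossing from that intron into the distal exon had 14.3% against 67.4% in early MOLM13 and 10.2% against 63.9% at day 12. The direct junction to the distal exon had 64.7% in early MOLM13 h64 against 13.2% in shNT, and 74.8% against 14.9% at day 12. The junction to the proximal exon and the reads at both ends of the stretch behind it thus moved together, and direct splicing to the distal acceptor moved the other way. Whether these reads lie in the same RNA molecules cannot be read from separate PSI values. These neighbours were chosen after their values were seen and carry no test. SRGAP2 RNA was 24.6 RPKM in early MOLM13 h64 against 16.9 in shNT and 21.8 at day 12 with h64 against 16.4 with shNT, under the 1.5-fold threshold in each comparison.

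ARHGAP33, another GTPase-activating protein, was called with h64 and not with h65. The event compares the junctions from chr19:36275219 to a 43-base exon at chr19:36275397-36275439, annotated as the last exon of a transcript with no defined coding sequence, and to 36275855. PSI of the distal junction was 33.7%, 36.4% and 25.5% in early MOLM13 h64 against 14.3%, 1.85% and 1.64% in shNT. In MV4;11 it was 69.7%, 60.0% and 46.7% with h64 and 1.54%, 8.70% and 5.26% with h65, against 0%, 22.2% and 0% with shNT. At day 12 it was 50%, 28.5% and 46.2% with h64 against 3.64%, 0.826% and 2.78% with shNT. Every h64 library was above all shNT libraries of its comparison, and the MV4;11 h65 libraries lay among the shNT ones. The differences with h64 were 25.9 (SE 5.05), 51.38 (SE 9.51) and 39.15 points (SE 6.34) in early MOLM13, MV4;11 and day 12 (adjusted p = 0.273, 0.245 and 0.114, limma). With h65 they were -7.29 (SE 2.77) in MOLM13 and -2.24 points (SE 7.33) in MV4;11. The MOLM13 h65 libraries lay at 0% to 9.09%, against 11.1% and 13.5% in the 2 measured libraries of their shNT set. These groups did not overlap, and the direction was opposite to that of h64. The difference between the h64 effects in MV4;11 and early MOLM13 was 25.48 points (SE 11.0, adjusted p = 1, limma interaction). The proximal junction fell at day 12 to 22.7%, 38.2% and 22.2% with h64, against 88.2%, 98.1% and 93.5% with shNT, a difference of -65.55 points (SE 5.67, adjusted p = 0.0266). Leaving out 1 library ended the distal call in each of the 3 comparisons for 4 of the 6 libraries, with differences of 23.63 to 24.98, 45.93 to 50.77 and 36.82 to 39.77 points, and the call at day 12 on the proximal junction held without any 1 library. As in SRGAP2, reads ran past the annotated end of the short exon, with a mean PSI of 40.8% in early MOLM13 h64 against 95.5% in shNT (2 of 3 libraries measured) and 28.6% against 92.1% at day 12.

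MBNL1 itself held 2 member events. The junction from chr3:152018156 to 152132730, the distal one, took 89.7%, 93.0% and 81.5% in early MOLM13 h64 against 49.3%, 50.8% and 33.7% in shNT. It took 58.5%, 58.0%, 70.6% and 66.6% in MOLM13 h65 against 39.9%, 55.6% and 44.7% in shNT. Both hairpins lay above their MOLM13 controls. In MV4;11 it took 89.0%, 85% and 88.8% with h64 and 68.3%, 75.7% and 74.4% with h65, against 39.4%, 45.4% and 42.4% with shNT. The day 12 values were 89.0%, 89.6% and 88.6% with h64 against 52.2%, 48.0% and 47.9% with shNT. All knockdown libraries were above their controls, and h65 lay between h64 and shNT in MV4;11. The differences were 43.44 (SE 6.12, adjusted p = 0.147), 16.7 (SE 5.12, adjusted p = 0.519, not called), 45.17 (SE 2.06, adjusted p = 0.0112), 30.41 (SE 2.74, adjusted p = 0.136) and 39.73 points (SE 1.37, adjusted p = 0.00225) by limma. The 4 calls held without any 1 library. The early last exon at chr3:152019708-152020238 was little used in each group, and no library was above 9.26%. With h64 its junction had a mean PSI of 3.44% against 1.02% with shNT in early MOLM13, 5.01% against 1.12% in MV4;11 and 1.38% against 0.914% at day 12. With h65 it had 0.593% ± 0.467 (SD, n = 4) against 2.13% ± 0.664 (SD, n = 3) with shNT in MOLM13, with no overlap, and 0.568% against 1.12% in MV4;11. The differences with h65 were -1.54 (SE 0.412, adjusted p = 0.441) and -0.551 points (SE 0.398, adjusted p = 0.968) by limma, so the mean was lower with h65 and higher with h64, and none of these differences was called. Another junction into the distal exon, from chr3:152056462, had 0.358% in early MOLM13 h64 against 9.05% in shNT and 0.654% at day 12 with h64 against 9.58% with shNT. None of these changes was as large as the rise of the distal junction. The remaining MBNL1 RNA is low with h64, and its part in these PSI values was not tested.

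ENPP2 encodes autotaxin, the secreted enzyme that makes lysophosphatidic acid. Its event skips an exon beginning at chr8:120584490, and neither acceptor begins an annotated last exon. PSI of the skipping junction was 100%, 100% and 99.2% in early MOLM13 h64 against 86.4%, 82.5% and 78.6% in shNT. It was 90.4%, 88.1%, 86.3% and 96.2% in MOLM13 h65 against 78.8%, 74.1% and 79.9% in shNT. Neither pair of MOLM13 groups overlapped. The MV4;11 values were 99.2%, 99.8% and 99.8% with h64 and 96.9%, 93.9% and 95.1% with h65, against 86.9%, 88.8% and 89.7% with shNT. The day 12 values were 100%, 98.8% and 100% with h64 against 78.3%, 72.5% and 68.9% with shNT. With h64 the skipping junction was thus almost the sole one used. The differences were 17.23 (SE 2.16), 12.67 (SE 2.83), 11.15 (SE 0.804), 6.83 (SE 1.15, under the 10-point limit) and 26.36 points (SE 2.62), with adjusted p = 0.0320 in MV4;11 h64 and 0.0378 at day 12 and 0.115 to 0.363 in the others. The 3 calls with h64 held without any 1 library, and the MOLM13 h65 call was lost without h65 replicate 1 or 2 or any 1 of its shNT libraries (10.92 to 13.8 points). The junction leaving the skipped exon, which the table calls a cassette exon, moved with the junction entering it: it had 0.138% at day 12 with h64 against 14.2% with shNT. The skipped ENPP2 exon thus had junctions on both sides and was not an end of the transcript in those reads. ENPP2 RNA varied widely between early MOLM13 libraries (39.8 ± 51.6 RPKM with h64 against 85.8 ± 119 with shNT, SD, n = 3 each). At day 12, where the PSI difference was largest, ENPP2 RNA fell to 18.1 ± 1.18 RPKM with h64, against 29.1 ± 3.65 with shNT (-0.65 log2, adjusted p = 0.000672, limma), and its part in the PSI was not tested.

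AUH encodes a mitochondrial enzyme of leucine breakdown that also binds AU-rich RNA. Its event compares 2 acceptors of the donor at chr9:94058303, and the proximal one, 94057079, is on no annotated exon edge. PSI of the proximal junction was 6.94%, 7.41% and 24.3% in early MOLM13 h64 against 53.8%, 47.1% and 48.6% in shNT. The MV4;11 values were 18.8%, 20.2% and 19.6% with h64 and 28.4%, 37.2% and 30.4% with h65, against 64.9%, 76.1% and 43.7% with shNT. The day 12 values were 12.9%, 10.5% and 9.64% with h64 against 51.6%, 60.0% and 65.8% with shNT. Both hairpins lay below shNT in MV4;11, where h65 missed the p threshold. In MOLM13 h65 the values overlapped, with 23.5% to 64.0% against 40.6% to 81.2%. The differences with h64 were -36.93 (SE 5.77, adjusted p = 0.182), -41.99 (SE 9.07, adjusted p = 0.321) and -48.11 points (SE 4.01, adjusted p = 0.0243). The reciprocal junction to 93983274 rose in turn, by 34.58, 42.58 and 47.32 points. The early MOLM13 call was lost without shNT replicate 1 or 3 (-34.92 and -37.56 points), the MV4;11 call without any library except shNT replicate 3 (-42.33 to -34.74 points), and the day 12 call held.

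ZDHHC3, a protein palmitoyltransferase, ended in 2 overlapping last exons. The donor at chr3:44970798 joins 44968339, where a last exon of 4 transcripts begins, or 44959635, where a last exon of 3 transcripts begins 8704 bases further. PSI of the proximal junction was 66.5%, 76.6% and 74.7% with h64 and 81.7%, 82.6% and 80.8% with h65 in MV4;11, against 94.6%, 93.9% and 91.8% with shNT. The day 12 values were 76.8%, 72.9% and 73.2% with h64 against 95.6%, 92.8% and 92.2% with shNT. The 3 MV4;11 groups did not overlap. In early MOLM13 it was 75.4%, 69.1% and 63.4% with h64 against 94.0%, 94.2% and 76.8% with shNT, also apart but not called. The differences were -20.86 (SE 3.06, adjusted p = 0.158) and -11.73 (SE 0.949, adjusted p = 0.111) in MV4;11 with h64 and h65, and -19.25 points (SE 1.55, adjusted p = 0.0221) at day 12. In MOLM13 h65 the difference was -2.26 points (SE 2.32). The 3 calls held without any 1 library. The distal junction had a mean PSI of 14.9% with h64 against 1.61% with shNT in MV4;11 and 18.2% against 3.24% at day 12.

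ETV5, a transcription factor of the ETS family, moved the other way, toward its early last exon. That exon, chr3:185812909-185813102 (194 bases), belongs to a transcript with no defined coding sequence, and the distal acceptor is at 185798964. PSI of the distal junction was 42.9%, 48.5% and 54.5% in early MOLM13 h64 against 78.3%, 68.1% and 64.9% in shNT. The MV4;11 values were 57.1%, 58.9% and 58.7% with h64 and 81.2%, 64.4% and 80.8% with h65, against 72.9%, 68.8% and 66.7% with shNT. By day 12 the values were 71.9%, 71.2% and 73.3% with h64 against 81.4%, 84.9% and 83.5% with shNT. Groups were apart with h64 and overlapped with h65. The differences were -21.79 (SE 4.99, adjusted p = 0.354), -11.22 (SE 1.83, adjusted p = 0.193) and -11.12 points (SE 1.12, adjusted p = 0.0391), and with h65 -1.02 (SE 6.12) in MOLM13 and 6.01 points (SE 5.56) in MV4;11. The junction to the early last exon had a mean PSI of 47.5% against 26.9% in early MOLM13, 34.2% against 28.8% in MV4;11 and 22.4% against 15.9% at day 12. In MV4;11 its values overlapped, at 23.9% to 42.9% with h64 against 24.2% to 31.9% with shNT, so a gain there is uncertain. They did not overlap in early MOLM13 or at day 12. The early MOLM13 call was lost without any 1 of the 6 libraries (-24.75 to -17.87 points) and the MV4;11 call without any except shNT replicate 3 (-11.56 to -9.50 points).

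KSR1, a scaffold protein of the Raf, MEK and ERK kinases, has an event with 2 annotated starts of its final exon. The donor at chr17:25944454 joins 25948955 or 25950340, and last exons of 3 and 5 transcripts begin there. PSI of the distal junction was 51.7%, 69.6% and 67.7% in early MOLM13 h64 against 97.5%, 91.4% and 94.4% in shNT. By day 12 the values were 70.2%, 56.5% and 56.9% with h64 against 97.2%, 89.7% and 90.5% with shNT. The groups did not overlap at either time. The proximal junction had a mean PSI of 13.4% with h64 against 2.4% with shNT in early MOLM13 (11.02 points, not called). At day 12 it had 24.4% against 3.25%. It rose by less than the distal junction fell at both times, so other local junctions take part in the PSI. The proximal junction had 25.9%, 24.0% and 16.1% in MV4;11 h64 and 10.3%, 6.25% and 11.4% in MV4;11 h65, against 0%, 2.13% and 1.41% in shNT. The differences were -31.45 (SE 5.64, adjusted p = 0.235) and -31.24 points (SE 4.83, adjusted p = 0.102) for the distal junction, and 20.84 points (SE 2.92, adjusted p = 0.147) for the proximal junction in MV4;11 h64. In MOLM13 h65 the distal junction differed by -4.47 points (SE 4.39). The early call was lost without h64 replicate 3 or any 1 shNT library (-33.81 to -29.93 points).

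**Figure D3:**
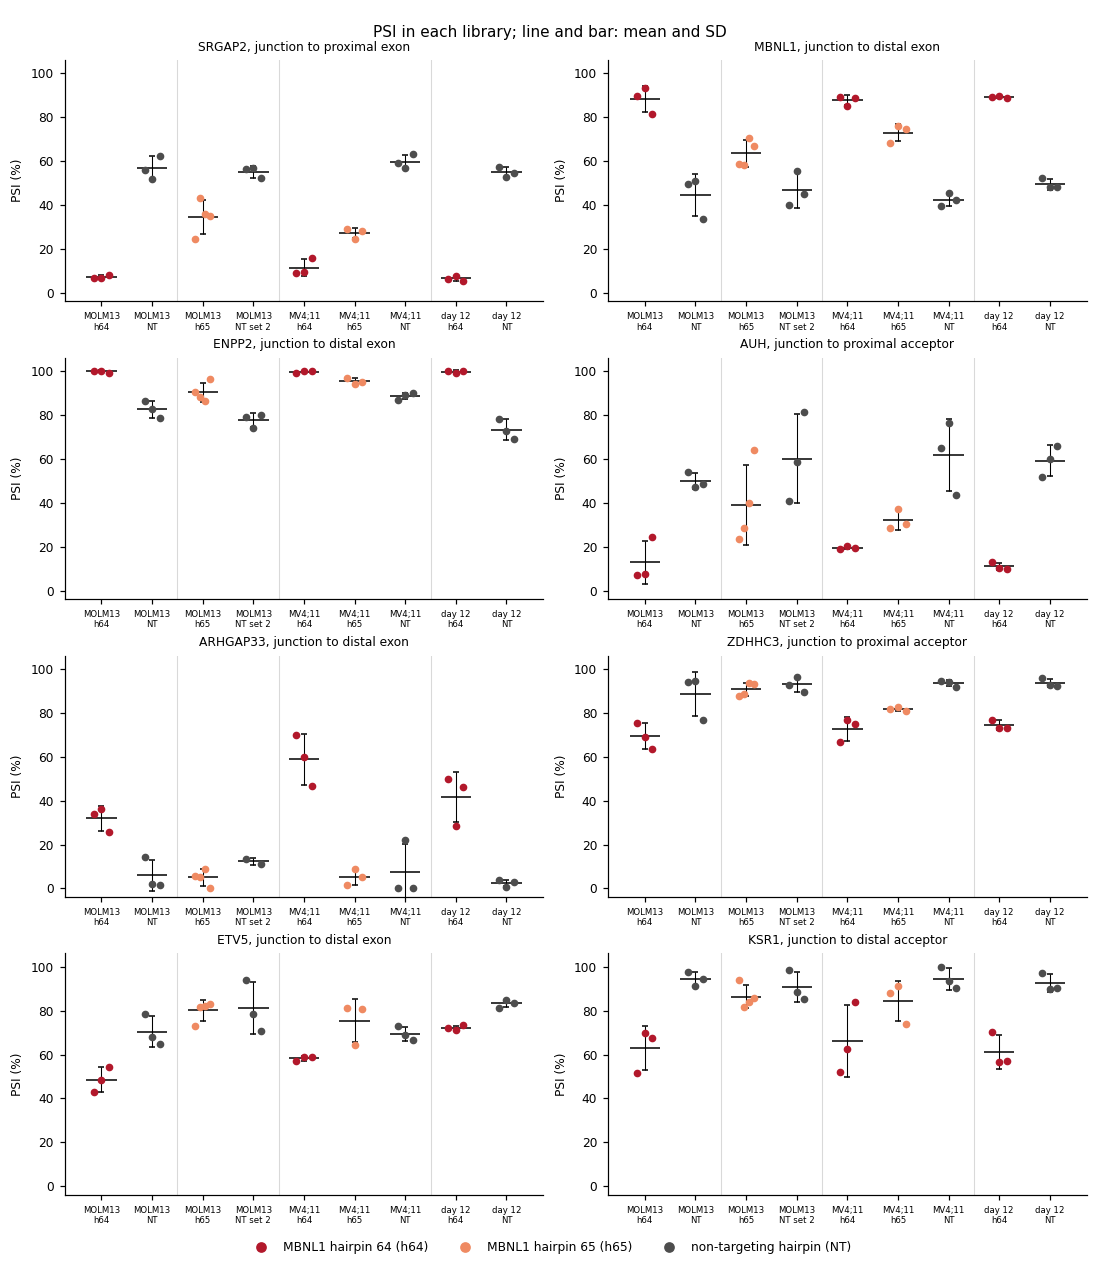
PSI in percent of 1 event of each of SRGAP2, MBNL1, ENPP2, AUH, ARHGAP33, ZDHHC3, ETV5 and KSR1 in every measured library (points), by group, with h64 in dark red, h65 in orange and the non-targeting hairpin (NT) in grey. Horizontal lines and bars give the mean and SD of each group, and pale vertical lines separate the sets that have their own controls. SRGAP2 h64 libraries lie at 5.37% to 15.7%, all below every h65 and NT library.

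The early MOLM13 h64 and shNT libraries share replicate numbers, but the labels do not state that these are pairs. Only replicate 3 deviated together in both groups, so pairing of the others by number is uncertain. With that limit, the same events were also fitted with the replicate as a block. Of 20 named events called in that comparison, 6 were also called with the block: SRGAP2, MBNL1, ENPP2, PI4K2B, USP32 and ZSWIM8, with blocked adjusted p-values of 0.208 to 0.342 by limma. Calls lost with the block included AUH (blocked adjusted p = 0.402), the distal junction of ARHGAP33 (adjusted p = 0.39), ETV5 (adjusted p = 0.592) and KSR1 (adjusted p = 0.468). The blocked fit still called 19 clusters.

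In further genes the distal junction gained share or the proximal junction lost it. In early MOLM13 h64 the distal junctions of PRKAG2, a regulatory subunit of the AMP-activated kinase, and VTI1A, a SNARE protein of Golgi traffic, rose by 41.98 (SE 9.03) and 37.83 points (SE 6.91), and the distal junction of EXD3 by 28.07 points (SE 4.56). The proximal junctions of PRKAG2 and VTI1A differed there by -31.75 and -9.31 points, neither called, so in VTI1A the proximal exon lost much less than the distal junction gained. With the same hairpin the distal junction of PRKAG2 differed by 12.34 points in MV4;11 (SE 7.51) and -5.55 at day 12 (SE 8.79). That of VTI1A differed by 9.99 (SE 4.56) and 16.28 points (SE 4.55), and none of these was called. In MOLM13 h65 the proximal junction of RECK, a membrane-anchored inhibitor of matrix metalloproteinases, fell to 10.4%, 14.8%, 24.1% and 18.2%, against 46.4%, 37.9% and 65.2% in shNT (-32.97 points, SE 7.25, adjusted p = 0.356). Those of SSH2, a phosphatase of cofilin, ARSK, a sulfatase, and FBXO32, an F-box protein, differed by -25.42, -21.62 and -18.45 points. In MV4;11 h64 the proximal junctions of ZNF771, a zinc finger protein, and DNAJA4, a heat shock protein 40 family cochaperone, fell by 55.32 (SE 4.64) and 29.2 points (SE 3.38). The distal junction of DENND1A, an exchange factor for Rab GTPases, was higher with both hairpins in MV4;11, by 21.63 (SE 4.44) with h64 and 18.31 points (SE 3.82) with h65. At day 12 the proximal junctions of CASP8, the initiator caspase of death receptors, and ORAI3, a calcium channel, fell by 19.61 (SE 3.30) and 19.1 points (SE 2.65). The adjusted p-values of the called differences among these were 0.0818 to 0.471 by limma, so none passes at 0.05. ZNF771 was measured in 2 libraries of each group, and ARSK and DNAJA4 in 2 of the 3 shNT libraries.

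In other genes the proximal junction gained share or the distal junction lost it. PI4K2B, a phosphatidylinositol 4-kinase, rose at its proximal junction to 91.5%, 95.0% and 93.3% in early MOLM13 h64, against 70.6%, 64.7% and 73.3% in shNT, and to 84.6%, 91.1% and 75.8% in MV4;11 h64, against 47.4%, 28.9% and 30.4% in shNT. By day 12 the values were 83%, 90.6% and 92.3% with h64 against 22.2%, 61.8% and 54.5% with shNT, apart but not called. Its distal junction had a mean PSI of 3.09% with h64 against 6% with shNT in early MOLM13, and 9.89% against 36.1% in MV4;11. The early MOLM13 gain was thus mostly at the cost of other local junctions. Each PI4K2B acceptor is annotated in 1 transcript, a non-coding one, so neither is an annotated end of a kinase-coding transcript. The distal junction of ZNF280D, a zinc finger protein, fell in MV4;11 to 38.5%, 45.5% and 33.3% with h64 and to 46.7% and 44.4% in the 2 measured h65 libraries, against 85.7%, 85.7% and 71.4% with shNT. PPIE, a cyclophilin of the spliceosome, rose at its proximal junction by 18.67 (SE 3.21) with h64 and 17.1 points (SE 3.45) with h65 in MV4;11. With h64 its distal junction did not fall by as much as 50% of that size. At day 12 the proximal junction of PCGF5, a Polycomb ring finger protein, rose by 18.87 points (SE 2.54). The rises in AP000525.9 and AL589743.1 are uncertain, since both gave nearly the same values (20.95 and 20.57 points at day 12) and shared reads could not be told apart.

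**Figure D4:**
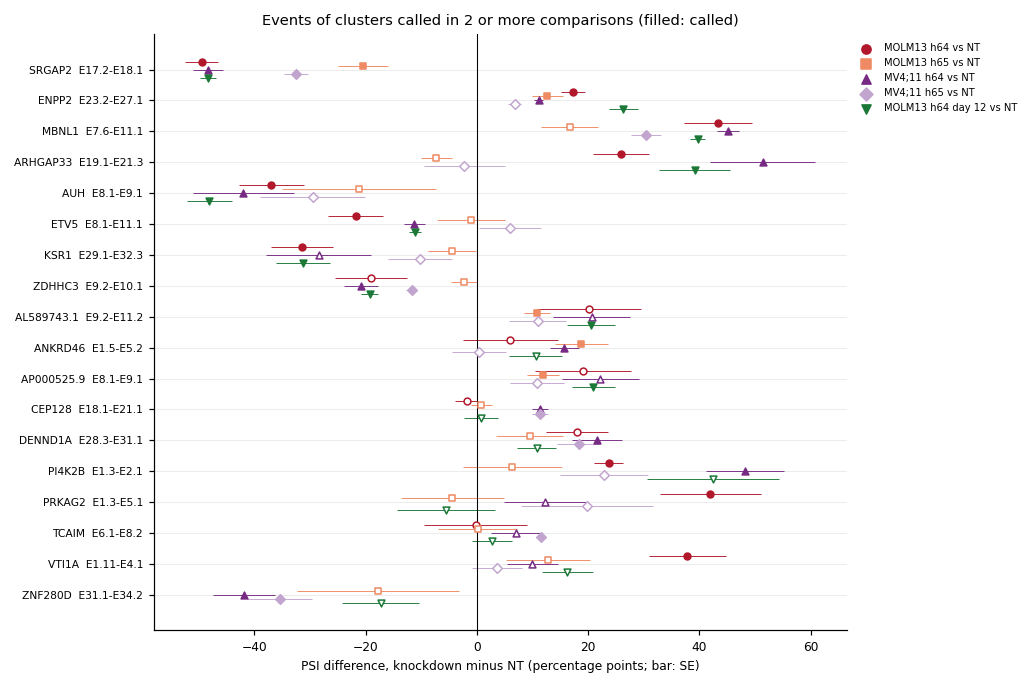
PSI difference, knockdown minus NT, in percentage points (points) with its SE (bars) in the 5 comparisons, for 1 event of each of 18 of the 20 clusters called in 2 or more comparisons, the others not being among the genes reported. Filled points were called for the event drawn, and a cluster can owe its second call to its reciprocal event. SRGAP2 lies left of 0 in all 5 comparisons, and ARHGAP33 lies right of 0 with h64 and at -7.29 and -2.24 with h65.

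Shared-acceptor members, which differ in the donor, gave 4, 1, 4, 2 and 7 of the called clusters. Calls of shared-acceptor clusters were not counted over all event types. The largest were AGO2, the slicing Argonaute, and TRIM9, a ubiquitin ligase, which rose by 28.6 (SE 6.44) and 28.25 points (SE 5.41) in MV4;11 h64. ADCY3, an adenylyl cyclase, rose by 26.46 points (SE 4.78) in MV4;11 h65. GPATCH8 rose by 22.92 points (SE 2.14, adjusted p = 0.0322) at day 12. VHL, the substrate receptor of a ubiquitin ligase, fell by 12.72 points (SE 2.07) in early MOLM13 h64. In none of these do the 2 junctions end at different last exons.

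The h64 effect was compared between settings with separate controls by the interaction term in limma. Between MV4;11 and early MOLM13, 6 of 1515 members (0.396%) differed at p of 0.01 or less and by over 10 points, against 0.794% of all events. Between day 12 and early MOLM13, 11 of 1548 (0.711%) did, against 0.779%. With adjusted p under 0.05 there were 0 in both, beside 77 of 1515 and 88 of 1548 members at an unadjusted p under 0.05. The share of all events at that unadjusted p was not counted, so these 2 counts have no background. For SRGAP2 the difference between the lines was 1.09 points (SE 4.12), and for MBNL1 1.73 points (SE 6.61). DNAJA4 had -34.46 points (SE 5.19, adjusted p = 0.164). Relative to early MOLM13, the PRKAG2 effect differed by -29.64 points (SE 12.5, adjusted p = 1) in MV4;11 and by -47.54 points (SE 12.9, adjusted p = 0.683) at day 12, and the VTI1A effect by -27.84 (SE 8.46, adjusted p = 0.821) and -21.54 points (SE 8.45, adjusted p = 0.998). The labels give no harvest day for the MV4;11 libraries, so line and harvest time cannot be told apart in the first contrast. Day 12 was sequenced on another machine than the early libraries, so time and machine cannot be told apart in that contrast.

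The letters before the distal acceptors were counted in clusters of separate exons. Clusters called toward the distal acceptor had a mean of 4.89, 2.80, 5.67, 3.62 and 4.82 matches in the 200 intron bases before it (n = 9, 10, 9, 8 and 11 clusters), and tested clusters that were not called had 2.31 to 2.36. The medians were 3, 2, 3, 3 and 3 against 2. SRGAP2 had 11 and ARHGAP33 15 of these matches, and the counts are a description with no test.

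Genes that could act on last-exon choice in trans were counted from fixed lists. Of 24 factors of 3′ end cleavage and polyadenylation 23 were tested in each comparison, and 0 were called at p of 0.01 or less and 1.5-fold by limma, where 2.42%, 3.24%, 6.51%, 3.63% and 5.52% of all genes were. At an unadjusted p under 0.05 there were 1, 3, 3, 1 and 10 of the 23. The share of all genes at that p was not counted. The median log2 change of the list was -0.081, 0.0072, -0.084, 0.00056 and 0.014, and that of all genes -0.0014, 0.052, 0.013, 0.06 and 0.044. Without MV4;11 shNT replicate 3 the count was 3 with h64 and 1 with h65. Of the 4 tested MBNL and CELF genes, MBNL1 alone was called, in 4 comparisons. Of 20 other regulators of last-exon choice 17 or 18 were tested, and the calls were in MV4;11 h64, where PTBP1, the polypyrimidine tract binding protein, rose (0.59 log2, SE 0.123, adjusted p = 0.0332) and TARDBP, which encodes TDP-43, fell (-0.64 log2, SE 0.137, adjusted p = 0.0343). At an unadjusted p under 0.05 there were 2, 2, 6, 0 and 9 of these regulators in the 5 comparisons, again with no count over all genes. Below the 1.5-fold limit, TARDBP differed by -0.51 log2 in early MOLM13 h64 (adjusted p = 0.379) and -0.46 at day 12 (adjusted p = 7.98e-05). CCNK, the cyclin partner of CDK12, differed with h64 by -0.48 (adjusted p = 0.269), -0.51 (adjusted p = 0.0394) and -0.30 log2 (adjusted p = 0.000852) in early MOLM13, MV4;11 and day 12. PTBP1 differed by 0.34 log2 at day 12 (adjusted p = 0.000554). Among the list genes, MBNL1, CELF6 and WDR33 had member events. WDR33, the subunit that recognises the polyadenylation hexamer, kept its distal junction at 96.4% to 100% in the libraries and was not called.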

How the data were processed

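The authors aligned the reads with STAR to hg19 (GRCh37), and quantified splicing with MultiPath-PSI in AltAnalyze. The deposited splicing values are PSI as a fraction, multiplied by 100 here, and the deposited expression values are RPKM per gene. Junction counts were not used here, so depth per value is unknown. Columns were matched to samples by name. The 3 shNT columns set against MOLM13 h65 carry no replicate number. Columns holding the authors' own comparisons were not used.

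Each knockdown was compared with its own shNT libraries by limma 3.58.1 in R 4.3.3, over every event that had a PSI in over 50% of both groups, with Benjamini-Hochberg adjustment over all of them. Expression was tested by limma on log2(RPKM + 1) for genes with a mean of 1 RPKM or more in either group. The scripts were tested on simulated data. Named genes are, with 1 event per cluster, up to 10 of the largest rises and 10 of the largest falls per comparison among called events whose groups do not overlap, events called one way in 3 or more comparisons, and tested events of the listed genes. The members and lists were chosen with earlier results of these data known. Replicate numbers were used to pair the early MOLM13 h64 and shNT samples, where deviations of same-numbered samples correlated at 0.168, 0.105 and 0.3. Between replicates 1 and 2 the differently numbered samples correlated at 0.103 and 0.117. Only replicate 3 thus stood apart, and pairing of the others by number is uncertain. Results for some genes are not reported here.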

Additional observations from a re-analysis of the deposited data

Results flagged for a closer look

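In MOLM13 h65, the first library stood apart from the other 3 for the distal junction of ETV5, at 73.0% against 81.8% to 83.1%. For the AC006465.3 event from E3.1 to E9.1 the library that stood apart in the same group was at 71.4%. Both gaps exceed Dixon's 95% critical value for 4 libraries, which chance passes in about 1 of 20 groups.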

How the results depend on the processing

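The counts of called clusters were 20 in early MOLM13 h64, 19 in MOLM13 h65, 26 in MV4;11 h64, 15 in MV4;11 h65 and 36 at day 12, and the values below follow that order. With all 28 libraries in one fit they were 43, 35, 50, 30 and 22, and the cause was not tested. An adjusted p under 0.05 left 1, 0, 3, 0 and 8, and a difference over 20 points left 10, 5, 14, 7 and 13, since both ask for more. With logit values they were 17, 18, 25, 14 and 36, and with events measured in every library 20, 17, 22, 11 and 36. With the replicate block they were 19 in early MOLM13 h64, 17 in MV4;11 h64, 15 in MV4;11 h65 and 24 at day 12. Outside early MOLM13 the samples share only a number (correlations of -0.047 to 0.009). No paired analysis was possible because the shNT columns carry no number for MOLM13 h65. Leaving out 1 library gave 14 to 24, 9 to 26, 18 to 35, 12 to 26 and 26 to 37. For MOLM13 h65 the count was 9 without h65 replicate 4, 12 without h65 replicate 3, and 11 and 12 without 1 or another of its shNT libraries, and for MV4;11 h65 it was 26 without shNT replicate 3. The count of 3′ end factors called was 0 to 3 in MV4;11 h64 and 0 to 1 in MV4;11 h65, above 0 only without shNT replicate 3. The WDR33 difference turned its sign in 7 fits that left out 1 library, with a range over such fits of -1.41 to 0.317 points in early MOLM13 h64 and -0.438 to 0.784 points at day 12. Over the named events, 747 of 1252 alternative values kept direction and side of the threshold, 498 kept direction only and 7 reversed. Junction counts are not used here, so what depth limits cannot be read for a single event.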
